A study of Mus musculus with 4 samples.

Results

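The mesothelial cells of the aged mouse lung were picked cell by cell from the RNA of 4 droplet libraries. A barcode was kept with at least 500 genes, at least 1000 unique molecular identifiers (UMIs, each standing for 1 captured RNA molecule) and no more than 10% mitochondrial UMIs. A kept cell was taken as mesothelial where at least 3 of the 5 markers Msln, Upk3b, Wt1, Lrrn4 and Upk1b had a UMI, and where Ptprc, the gene of CD45 on leukocytes, and Cdh5, the gene of VE-cadherin on endothelium, both had none. This gave 152 cells of 42043 CD45-negative cells and of 68675 kept cells in all. CD45-negative here means no Ptprc UMI and fewer than 3 of 8 leukocyte genes detected, and the mesothelial cells were counted in whatever their leukocyte genes, of which 6 of the 152 had 3 or more.

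The lungs came from male C57BL/6 mice that were 19 months old when treatment began and that received for 1 month either the small molecule BPTES or its vehicle DMSO. Each treatment had 2 libraries. The lungs were minced and digested with an enzyme mix, the cells were sorted by CD45 stain, and each library mixed 20000 cells without and 9000 cells with CD45 from the same tissue. The labels do not say that the libraries of a treatment came from separate mice, so the spread between libraries behind every p-value below may be technical. The p-values by gene rest on a spread shared across genes. They do not measure how far 1 gene differed between the libraries, and can be small where the libraries disagree, as for Saa3 below. At like differences and standard errors, they were far smaller against the other CD45-negative cells than against the smaller classes read below. P-values therefore cannot be compared between comparisons.

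Mesothelial cells form the flat outer layer of the visceral pleura, the membrane that wraps the lung. They carry microvilli and a slippery coat of mucins, hyaluronan and lubricin, move salt and water across the pleural surface, and rest on a basement membrane that they help to build. They arise from mesoderm rather than from the airway lining, and so join epithelial traits such as keratins and tight junctions to transcription factors and matrix genes of connective tissue.

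The 4 libraries held 260346570 to 342107092 UMIs, and 15349 to 20549 barcodes per library passed the filters. Pairs of libraries shared 65 to 104 barcodes. The mesothelial cells numbered 4 and 8 under BPTES and 90 and 50 under DMSO. Their summed UMIs were 45077 and 114171 under BPTES, and 3015812 and 863228 under DMSO. Their median depth was 33016 UMIs in DMSO 1 and 17658 in DMSO 2, against medians of 14089 and 13563 for the other CD45-negative cells of the same libraries, and 9612 and 6433.5 UMIs in the BPTES libraries. Levels below are CPM, the UMIs of a gene per 1000000 UMIs of the summed cells, and are compared between classes for 1 gene at a time.

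As a share of CD45-negative cells, the mesothelial cells made up 0.0388% in BPTES 1 (exact 95% binomial interval 0.0106% to 0.0993%), 0.0795% in BPTES 2 (0.0343% to 0.157%), 0.948% in DMSO 1 (0.763% to 1.16%) and 0.411% in DMSO 2 (0.305% to 0.541%). Both DMSO libraries were above both BPTES libraries, and the intervals of the 2 groups, which cover counting error only, did not overlap. The intervals of DMSO 1 and DMSO 2 did not overlap each other either. The mean share was 0.0592% ± 0.0288 (SD, n = 2) under BPTES and 0.679% ± 0.380 (SD, n = 2) under DMSO. The difference was -3.49 on the log2 scale, BPTES over DMSO, with a two-sided exact permutation p of 0.333, the smallest that 2 libraries against 2 can give. Keeping only cells with a Msln UMI gave 0.0388% and 0.0696% under BPTES and 0.453% and 0.312% under DMSO, a difference of -2.85 that kept the order of the groups. The treatment, the lung that was minced and the amount of pleura in it cannot be told apart with these libraries. For that reason the cells are described below within the DMSO libraries, against other cells of the same libraries.

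**Figure D1:**
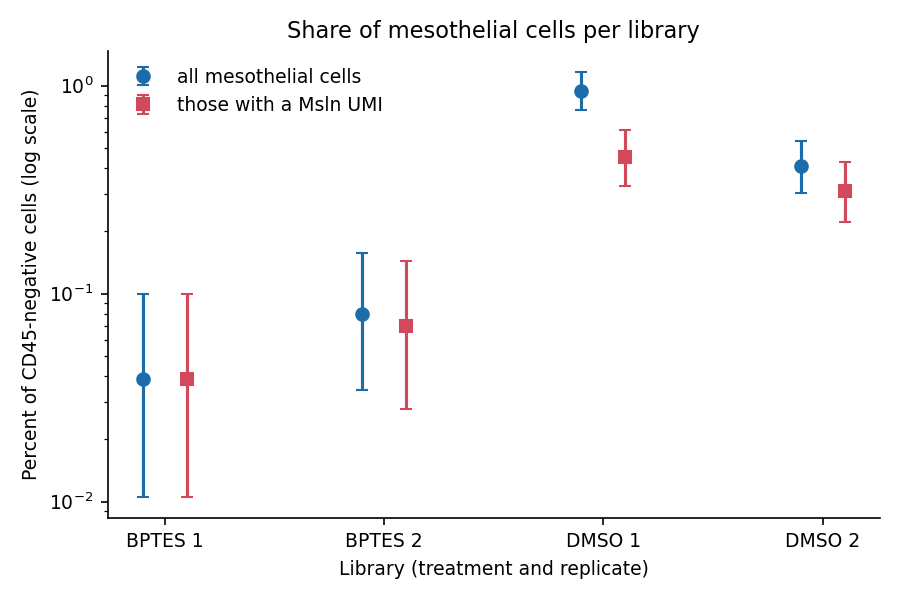
Mesothelial cells as a percentage of CD45-negative cells (log scale) in each of the 4 libraries, for all 152 cells and for those with a Msln UMI, with exact 95% binomial intervals. The DMSO libraries sit at 0.948% and 0.411%, both above the BPTES libraries at 0.0388% and 0.0795%.

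The 5 markers chose the cells, so their levels are a description with no test. Msln encodes mesothelin, a surface glycoprotein that binds the mucin Muc16, and stands on mm10 chromosome 17 at 25748613 to 25754378. Msln measured 273 and 418 CPM in the mesothelial cells of DMSO 1 and DMSO 2, against 0.904 and 0.494 in the other CD45-negative cells, and 92 of the 152 cells had a UMI. Upk3b, a uroplakin of the apical membrane (chromosome 5, 136038496 to 136046487), measured 936 and 1828 against 6.03 and 2.10 CPM and was found in 149 cells. Lrrn4, a leucine-rich repeat membrane protein (chromosome 2, 132868305 to 132880891), measured 255 and 411 against 1.77 and 0.309 CPM and was found in 138 cells. These 3 genes were close to absent elsewhere.

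The remaining 2 markers were less exclusive. Wt1, the Wilms tumour transcription factor of the embryonic and adult mesothelium (chromosome 2, 105126529 to 105173616), measured 1042 and 890 against 39.3 and 9.27 CPM and was found in 147 cells. Upk1b, a tetraspanin uroplakin (chromosome 16, 38773184 to 38800328), measured 302 and 451 against 74.9 and 74.1 CPM and was found in 122 cells. It was nearer the mesothelial level in cells with no Ptprc or Cdh5 UMI and exactly 1 of the 5 markers. These numbered 2278 and 2373 in the DMSO libraries, and held 203 and 237 CPM of Upk1b. The fibroblast gene Pdgfra measured 1236 and 1318 CPM there, so Upk1b did not set the mesothelial cells apart from such cells. In the few BPTES cells the 5 markers lay between 403 and 2218 CPM, which is within or above the range of the DMSO cells for every marker except Wt1, at 821 and 464, and Upk3b in BPTES 2, at 482.

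The label was then checked against 27 further genes known from mesothelium, a list chosen with earlier results of these data known. Counts were summed per library and class and the 2 DMSO libraries were compared with edgeR's quasi-likelihood test, with the library as a block, which leaves 1 residual degree of freedom. Over all 18579 genes tested, 9.13% were called higher and 13.3% lower than in the other CD45-negative cells at an adjusted p under 0.05, and the median log2 difference was -0.19. Of the 26 mesothelial genes that passed the filter, 25 were higher, in both libraries, with a median log2 difference of 3.97, and Tm4sf1 was not called. The remaining gene, Calb2, the calretinin of human mesothelium, had 0 UMIs in the mesothelial cells and was not tested. The filter admits a gene on its level in either class, so a gene detected only in mesothelial cells could enter only by being higher.

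Markers of other cells were low in the summed class, with exceptions that bear on its purity. The 5 endothelial markers summed to 27.9 and 32.4 CPM, against 2009 and 2491 in the other cells, a difference that the rule itself favours because only the mesothelial cells had to lack Cdh5, and the 5 lymphatic markers to 14.3 and 8.11 against 882 and 651. The 8 leukocyte genes summed to 25.5 and 31.3 against 74.6 and 86.6 CPM, all 8 with some UMIs. The ciliated markers summed to 2.32 and 9.27 CPM with Ccdc153 and Foxj1 at 0. The adventitial fibroblast markers, however, summed to 475 and 636 CPM, above the 302 and 236 of the other cells. They split, with Col14a1, Dpp4 and Cd248 called higher and Pi16 and Ccl11 called lower. The 5 smooth muscle markers summed to 186 and 95.0 CPM against 145 and 166, and so were above the other cells in DMSO 1. The 5 alveolar type 2 (AT2) markers summed to 82.6 CPM in DMSO 1 and 10327 in DMSO 2, against 4651 and 7206. In DMSO 2 they were thus above the other cells. Only 1 mesothelial cell there had 100 or more UMIs of Sftpc, and it held 8566.

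Counted by cell, 82 of the 152 also had at least 3 of the 5 markers of another class. Of these, 55 passed for adventitial fibroblasts, 27 for alveolar fibroblasts, 11 for AT2 cells, 10 for smooth muscle, 4 for alveolar type 1 (AT1) cells, 3 for endothelium and 1 for club cells, and a cell could pass for several. No doublet caller was run, and the part of droplets with more than 1 cell in this overlap was not tested. A marker counted from 1 UMI, and Sftpc, an AT2 marker, had a UMI in 70.7% and 89.5% of the DMSO adventitial fibroblasts. The part of RNA from outside the cell in this overlap was not tested either. The comparisons were therefore repeated without these 82 cells and, separately, with only the cells that had a Msln UMI.

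Muc16, Bnc1 and Cldn15 were among the genes with the largest excess in the mesothelial cells. By a fixed rule on size, 20 genes outside the markers had log2 differences of 6.39 to 9.89 over the other CD45-negative cells, with edgeR adjusted p-values of 7.0e-60 or smaller. All 20 were also called higher without the cells that passed for another class, with only Msln-positive cells, and against other cells with no Cdh5 UMI. Leaving out the cells that passed for another class need not leave out fibroblasts. As a sum, the adventitial markers were no lower in the Msln-positive cells of either library, as given below. Muc16, the CA125 mucin of mesothelial microvilli and the binding partner of mesothelin, measured 428 and 1125 CPM against 2.71 and 1.15, a log2 difference of 8.65 ± 0.41 (SE). Both mesothelial values stood far above both values of the other cells. Bnc1, the zinc-finger factor basonuclin 1, measured 67.6 and 98.5 CPM against 0.849 and 0.118 (7.80 ± 0.37, edgeR adjusted p = 7.2e-92). Cldn15, a claudin that forms cation-permeable tight junctions, measured 117 and 368 CPM against 2.59 and 1.79 (6.63 ± 0.36, edgeR adjusted p = 2.4e-70).

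Among the other genes of the 20 were channels, membrane proteins and lectins. Kcnd2, a voltage-gated potassium channel, measured 268 and 1480 CPM against 1.82 and 2.04 in the other cells (log2 difference 8.39 ± 0.40). The galectins Lgals2 and Lgals7 differed by 8.09 and 8.05 on the log2 scale. Pkhd1l1, a large membrane protein related to fibrocystin, measured 475 and 1440 CPM against 9.70 and 5.14 (6.91 ± 0.38). Alox15, the 12/15-lipoxygenase known from resident macrophages of serous cavities, was uneven, at 12.9 and 95.0 CPM against 0.288 and 0.112. Slurp1 had the largest difference, at 169 and 41.7 CPM against 0.116 and 0.0786, but 39% of its UMIs in DMSO 1 and 86% in DMSO 2 came from 1 cell. The remaining members were Stk26, Tmem151a, Nxph1, Pcnx2, Dync1i1, Tmem108, Dhrs9, Aldh1a2, Zfp804b, Pcdh15 and Dock3, with log2 differences of 6.39 to 7.09.

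The 8 genes most reduced, by the same rule, were dominated by genes with no UMI at all in the mesothelial cells. Sema3g, Ednrb, Adrb1, Tmem252, Nova2 and Sema7a had 0 UMIs in the DMSO mesothelial cells. Against a floor of 3 UMIs over both libraries they were at least 159-fold (Sema3g), 113-fold (Ednrb), 98.3-fold (Adrb1), 82.5-fold (Tmem252), 69.8-fold (Nova2) and 65.9-fold (Sema7a) lower. Scn3a and Fgf10, the latter a growth factor of lung fibroblasts, had 1 UMI each, which put them 907-fold (counting interval 163 to 35840) and 498-fold (89.4 to 19680) below the other cells. Several of these genes are known from lung endothelium, which the class excludes by Cdh5. When the comparison cells were also limited to those with no Cdh5 UMI, 5 of the 8 were still called lower, and Nova2, Sema3g and Sema7a were not. DESeq2's Wald test did not call the 6 genes with 0 UMIs.

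**Figure D2:**
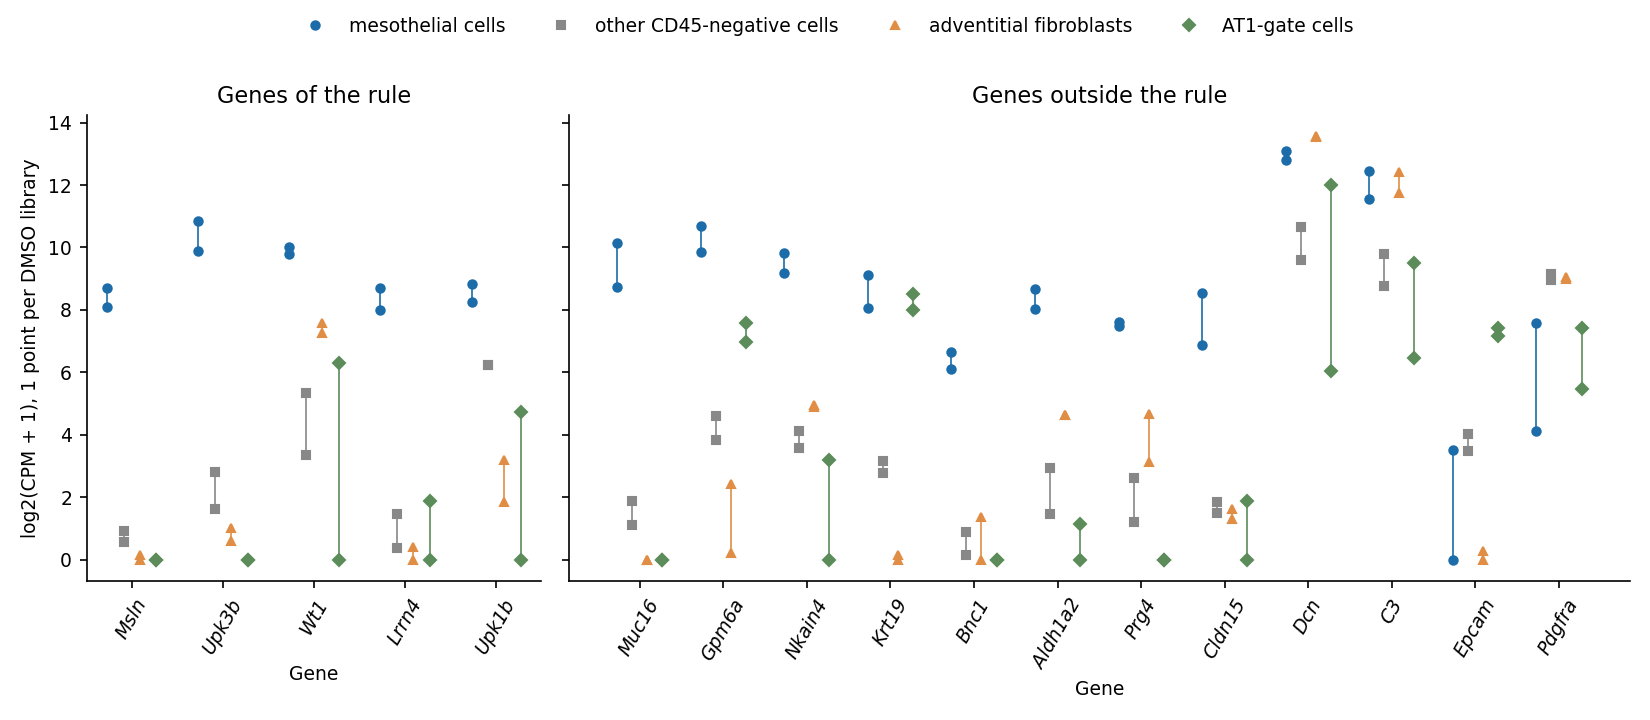
Levels as log2(CPM + 1) of summed cells, 1 point for each of the 2 DMSO libraries joined by a line, for the 5 markers of the rule (left) and 12 genes outside it (right), in mesothelial cells, other CD45-negative cells, adventitial fibroblasts and cells passing the AT1 gate. Muc16 is at 0 in both the adventitial and the AT1-gate cells, whereas Dcn and C3 lie near the adventitial values and Krt19 near those of the AT1-gate cells.

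The surface coat and lubricants were followed over a list of 23 glycocalyx genes, all tested. In it, 11 genes were higher, 3 lower and the median log2 difference was 1.21. This count and those of the lists that follow stand beside 9.13% higher and 13.3% lower over all genes tested. Prg4, the lubricin that lets serous and joint surfaces glide, measured 177 and 194 CPM against 5.14 and 1.32 in the other cells (6.16 ± 0.35, edgeR adjusted p = 2.8e-64), with 18% and 51% of its UMIs from 1 cell. Has1, a hyaluronan synthase, measured 176 and 336 CPM against 44.4 and 40.2 (2.56 ± 0.30, edgeR adjusted p = 4.7e-16). Sdc4, a heparan sulfate proteoglycan, measured 1148 and 553 CPM against 166 and 173 (2.27 ± 0.31). Dcn, the collagen-binding proteoglycan decorin that is best known from fibroblasts, measured 8649 and 7166 CPM against 1602 and 778 (2.85 ± 0.34, edgeR adjusted p = 5.2e-16). In all 4 genes both mesothelial values were above both values of the other cells.

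Epithelial structure was present in part. Of 34 keratin and junction genes tested out of 36, 15 were higher and 9 lower, 8 of the 9 in both libraries, with a median of 0.47. Krt19, the small keratin of simple epithelia and mesothelium, measured 269 and 557 CPM against 5.86 and 7.97 (5.86 ± 0.35, edgeR adjusted p = 4.4e-60). The simple-epithelium keratins Krt7, Krt8 and Krt18 were also higher, by 3.33, 2.66 and 2.62 on the log2 scale. Cdh3, the P-cadherin of cell contacts, measured 52.4 and 31.3 CPM against 1.04 and 0.213 (6.33 ± 0.41). In contrast stood Epcam, the adhesion molecule of lung epithelium, which was named after its values were seen. It measured 0 CPM in DMSO 1 and 10.4 in DMSO 2, against 10.3 and 15.2. All 9 UMIs of Epcam in DMSO 2 lay in 1 Msln-positive cell. Its difference of -2.15 ± 0.60 (edgeR adjusted p = 0.0023) was not called in 5 of 21 alternatives, among them without DMSO 1, at -1.37, and with only Msln-positive cells, at -1.49. Fits that leave out 1 library, here and below, start from all 4 libraries, where Epcam was at -2.46, and so hold BPTES cells that the 2 DMSO libraries do not. Ocln, a tight junction protein of epithelium and endothelium, had 2 UMIs in the mesothelial cells and was 41.6-fold lower (counting interval 11.5 to 344).

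Upk1b and Upk3b were set beside 9 related genes of the uroplakin and tetraspanin families. Of the 7 tested, 2 were higher and 2 lower, beside 9.13% higher and 13.3% lower over all genes tested. Cd151, a tetraspanin bound to laminin-binding integrins, was among the higher at 208 and 213 CPM against 112 and 118 (0.91 ± 0.29, edgeR adjusted p = 0.0088). It was not called in 4 of 21 alternatives, among them without DMSO 1, at 1.00, without DMSO 2, at 1.03, and without the cells that passed for another class, at 0.74. Tspan8 was lower at 30.2 and 74.1 CPM against 95.7 and 105 (-1.06 ± 0.29, edgeR adjusted p = 0.0022), and was higher by 1.64 against other cells with no Cdh5 UMI. Its call was lost in 3 other alternatives, DESeq2 among them, at -1.01. The other called pair was Cd9, lower, and Upk3bl, higher, whose counts are uncertain because it is a near copy of Upk3b.

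**Figure D3:**
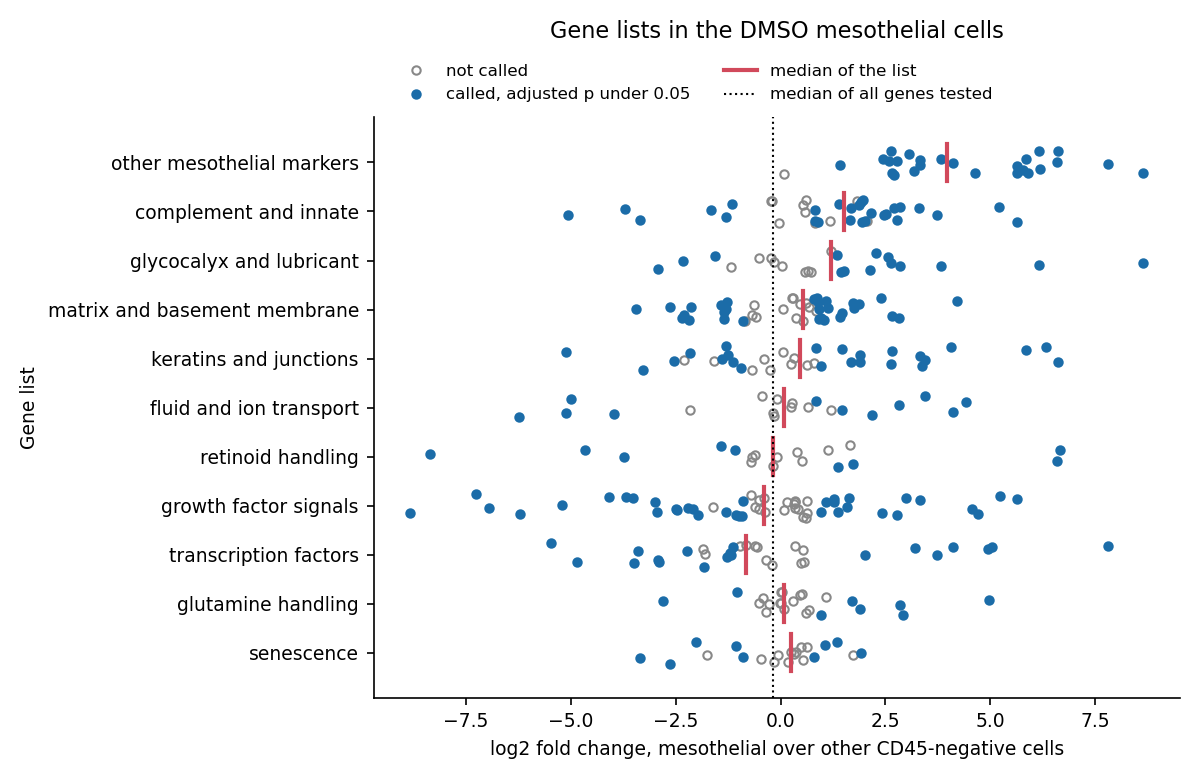
Log2 difference of each tested gene between mesothelial and other CD45-negative cells of the 2 DMSO libraries, by gene list, leaving out genes with 0 UMIs in the mesothelial cells. Filled points passed edgeR's test at an adjusted p under 0.05, bars mark list medians, from 3.97 for the other mesothelial markers to -0.83 for transcription factors, and the dotted line marks the median of all genes, -0.19.

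Transcription factors went both ways. Of 31 tested, 7 were higher and 12 lower, all in both libraries, with a median of -0.83. Besides Bnc1, the higher ones included Sox6 at 342 and 723 CPM against 19.2 and 14.3 (4.94 ± 0.34), Gata6 at 552 and 327 against 56.4 and 39.6 (3.21 ± 0.31), Tbx18 (5.03 ± 0.47) and Gata4 (4.10 ± 0.48). Gata4, Gata6 and Tbx18 are known from the epicardium and other serosal linings. Tcf21, a factor of lung fibroblasts, measured 1.66 and 10.4 CPM against 197 and 190 (-5.47 ± 0.40, edgeR adjusted p = 3.1e-41). Tbx3 was lower by 4.86 ± 0.38 on the log2 scale. For each factor named here, both mesothelial values lay on the same side of both values of the other cells.

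Basement membrane genes were mixed. Over 43 matrix genes, 18 were higher, 16 of them in both libraries, and 12 lower, with a median of 0.54. Nid2, a nidogen that links laminin to collagen IV, measured 99.8 and 175 CPM against 9.92 and 5.42 (4.20 ± 0.32, edgeR adjusted p = 5.0e-38). The collagen IV chains split. Col4a4 was higher at 45.8 and 200 CPM against 15.3 and 16.2 (2.65 ± 0.30) and Col4a6 at 153 and 298 against 51.1 and 34.2 (2.38 ± 0.30), whereas Col4a1, the common chain of most basement membranes, was lower at 129 and 42.9 against 435 and 571 (-2.64 ± 0.32). The call for Col4a4 was lost without the cells that passed for another class.

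Complement and innate genes were more often higher than lower against the other CD45-negative cells, but not against adventitial fibroblasts, as given below. Of 38 tested, 21 were higher, 19 of them in both libraries, 6 were lower and the median was 1.52. C3, the central complement protein, measured 5646 and 2983 CPM against 883 and 432 (2.77 ± 0.32, edgeR adjusted p = 3.4e-16). C2 measured 183 and 513 CPM against 26.7 and 20.8 (3.74 ± 0.32), C4b 1280 and 1208 against 278 and 182 (2.50 ± 0.31), and Rarres2, the precursor of the chemoattractant chemerin, 1132 and 2123 against 268 and 225 (2.69 ± 0.32). Slpi, a secreted protease inhibitor, measured 420 and 419 CPM against 8.83 and 8.38 (5.64 ± 0.35), with 24% and 56% of its UMIs in 1 cell.

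Cytokines and chemokines of the same list split. Il33, Cxcl1, Cxcl2, Cxcl10, Ccl2 and Ccl7 were called higher, of which Cxcl2 was higher in DMSO 1 only, and Il6, Cxcl12 and Ccl11 were called lower. Il33, an alarmin of barrier tissues, measured 183 and 328 CPM against 41.1 and 30.0 (2.84 ± 0.31, edgeR adjusted p = 4.8e-19), and was higher in both libraries. Cxcl1, a chemokine for neutrophils, measured 1220.2 and 176 CPM against 171 and 83.9 (2.01 ± 0.31, edgeR adjusted p = 2.2e-09). Ccl2 and Ccl7 lay mostly in DMSO 1 cells with no Msln UMI, with 820 UMIs of Ccl2 and 517 of Ccl7 there against 220 and 17 in the Msln-positive cells. Il33, Cxcl1, Ccl2 and Ccl7 were described after their values were seen. Cxcl12, a chemokine of stromal cells, measured 56.0 and 3.48 CPM against 314 and 324 (-3.72 ± 0.35, edgeR adjusted p = 2.5e-25). Il6 measured 29.8 and 2.32 CPM against 172 and 133 (-3.34 ± 0.34, edgeR adjusted p = 3.7e-21). Saa3, an acute-phase serum amyloid, rested on DMSO 1, with 2296 CPM against 95.5 there and 2.32 against 9.83 in DMSO 2. Its overall difference of 2.47 ± 0.44 (edgeR adjusted p = 2.1e-07) was not called in all 4 libraries, at 0.31, and from there became -2.35 without DMSO 1, 1.05 without DMSO 2 and 0.86 without BPTES 1, none of them called.

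Retinoid handling showed a narrow set of high genes. Of 19 tested, 4 were higher and 5 lower, beside 9.13% and 13.3% over all genes tested. The median was -0.18, or -0.095 with the gene at 0 UMIs set to a floor of 3 UMIs. Aldh1a2, which makes retinoic acid and is a known serosal gene, measured 261 and 409 CPM against 6.72 and 1.76 (6.59 ± 0.37, edgeR adjusted p = 4.7e-68). Dhrs9, a retinol dehydrogenase, measured 54.1 and 104 CPM against 1.46 and 0.348 (6.66 ± 0.36, edgeR adjusted p = 1.4e-72). Lrat, which stores retinol as esters, had 1 UMI in the mesothelial cells and was 324-fold lower (counting interval 58.2 to 12810). With at least 2 markers its log2 difference was -0.89 in the DMSO libraries and -0.21, with no call, in all 4.

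Genes of fluid and ion transport gave 7 higher, 6 of them in both libraries, and 4 lower of 22 tested. Over all genes tested the shares were 9.13% and 13.3%. The median of the list was 0.08, or 0.26 with the 2 genes at 0 UMIs set to the floor. Slc9a3r1, the scaffold NHERF1 that anchors transporters and ezrin in microvilli, measured 199 and 200 CPM against 11.8 and 12.0 (4.11 ± 0.32). Atp1b1, a sodium pump subunit, measured 350 and 499 against 35.8 and 43.5 (3.44 ± 0.31, edgeR adjusted p = 1.7e-26). Car4, a membrane carbonic anhydrase of lung capillaries, measured 0.995 and 4.63 against 157 and 160 (-6.25 ± 0.43), and differed by -0.38, with no call, against other cells with no Cdh5 UMI. Aqp1, a water channel of both mesothelium and endothelium, did not differ beyond its error, at 224 and 476 CPM against 363 and 395 (-0.18 ± 0.29, edgeR adjusted p = 0.75). Against the cells with no Cdh5 UMI it was higher by 2.79, and without the mesothelial cells that passed for another class it was called lower, at -1.58.

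Growth factor genes went both ways. Of 54 tested out of 56, 15 were higher and 20 lower, 19 of the 20 in both libraries, and more genes were also lower than higher over all genes tested, 13.3% against 9.13%. The median of the list was -0.39, or -0.15 with the gene at 0 UMIs set to the floor, beside -0.19 for all genes. Igfbp5, which binds insulin-like growth factors, measured 1526 and 3650 CPM against 120 and 88.0 (4.56 ± 0.35, edgeR adjusted p = 7.9e-37), and Igfbp6 1277 and 2262 against 187 and 164 (3.32 ± 0.32). Rspo1, a secreted amplifier of Wnt signals, measured 218 and 291 CPM against 8.49 and 3.06 (5.65 ± 0.35). Cxadr, a junction protein used as a receptor by coxsackieviruses and adenoviruses, measured 376 and 322 CPM against 10.4 and 8.73 (5.23 ± 0.34). Hgf, a growth factor that fibroblasts make for epithelium, measured 1.33 and 3.48 CPM against 156 and 135 (-6.22 ± 0.44). With at least 2 markers and all 4 libraries its sign changed, at 0.50. Pdgfra, the receptor that marks most lung fibroblasts (named after its values were seen), measured 192 and 16.2 CPM against 564 and 494 (-2.94 ± 0.34), so that the DMSO 1 cells held far more of it than the DMSO 2 cells.

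Adventitial fibroblasts, the collagen-rich cells around vessels and airways, were the class for which the most mesothelial cells also passed, 55 of 152. They were gated by at least 3 of Pi16, Col14a1, Dpp4, Cd248 and Ccl11, numbered 304 and 200 in the DMSO libraries and had median depths of 32056 and 29524 UMIs. Cells that met both rules, 34 and 18 in these libraries, were counted as mesothelial only. The gate also held markers of other classes. Its own 5 markers summed to 1801 and 1915 CPM, and the 5 alveolar fibroblast markers to 2304 and 3110, against 3917 and 3540 in the other CD45-negative cells. Pericyte markers summed to 314 and 363 CPM, against 118 and 130. The part of other fibroblasts or pericytes in this class was not tested, and its name stands for the gate. Of 12867 genes tested, 6.39% were higher and 7.58% lower in the mesothelial cells by edgeR's test, with a median of -0.02. Of the mesothelial list, 19 of 26 genes were higher and 0 lower, with a median of 3.92. Of the keratin and junction list, 18 of 27 were higher and 2 lower, with a median of 2.59. Matrix genes went the other way, with 2 higher and 14 lower of 41 and a median of -0.67. Complement and innate genes were mostly not called, with 2 higher (Slpi and Saa3) and 4 lower of 32 and a median of -0.32.

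A mucin, keratins and a potassium channel were at or near 0 in adventitial fibroblasts. Muc16 had 2261 UMIs in the mesothelial cells and 0 in the fibroblasts, at least 3000-fold higher. Krt18 had 0 UMIs in the fibroblasts, at least 381-fold higher, and Krt19 had 1, a ratio of 5139 with a counting interval of 921 to 203100. Kcnd2 had 3 UMIs in the fibroblasts, a ratio of 2769 (946 to 13440), and Slurp1 had 1, a ratio of 2169 (388 to 85840), with the uneven spread among cells given above. Slurp1 did not enter the fit without the cells that passed for another class, and was not tested there. Nkain4 measured 574 and 912 CPM against 30.1 and 28.5 (4.50 ± 0.32, edgeR adjusted p = 0.0015), Aldh1a2 261 and 409 against 23.6 and 23.8 (3.66 ± 0.29, adjusted p = 0.0019), and Igfbp5 1526 and 3650 against 219 and 451 (2.79 ± 0.23, adjusted p = 0.0022).

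In the opposite direction Slco2b1, Cilp and Crispld1 had no UMI in the mesothelial cells and were at least 178-fold, 92.3-fold and 66.4-fold lower than in adventitial fibroblasts. DESeq2's Wald test called none of the 3, with adjusted p-values of 0.0996, 0.167 and 0.168. Mmp3, a matrix protease, had 3 UMIs and was 797-fold lower (counting interval 273 to 3864), and Sult1e1 had 1 UMI and was 744-fold lower (134 to 29410). Tcf21 differed by -5.11 ± 0.56 and Hgf by -5.68 ± 0.56 on the log2 scale. With at least 2 markers and all 4 libraries both signs changed, at 0.66 and 1.54, and that of Hgf also changed in the DMSO libraries alone. Dcn and C3, both high in the mesothelial cells, were among the genes not called. Dcn measured 8649 and 7166 CPM in the mesothelial cells and 12084 and 11946 in the fibroblasts (-0.72 ± 0.21, edgeR adjusted p = 0.081), and C3 measured 5646 and 2983 against 5482 and 3459 (-0.20 ± 0.21, adjusted p = 0.63). C3 was called lower in 1 of 20 alternatives, at -1.17 with at least 2 markers and all 4 libraries. Dcn was called lower in 6 of 20 alternatives, at -0.78 to -2.20, among them without DMSO 1, at -1.05, and with only Msln-positive cells, at -1.19.

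An epithelial comparison was made with cells gated by AT1 genes (Ager, Hopx, Rtkn2, Aqp5 and Clic5), of which the DMSO libraries held 33 and 68 at median depths of 3425 and 4127.5 UMIs. This gate was impure, with 3 and 8 of its cells holding a UMI of the ciliated gene Ccdc153, and club cell markers summed to 61486 CPM in DMSO 2. Of 9912 genes tested, 8.6% were higher and 12.4% lower in the mesothelial cells. The 5 most reduced genes, Ccdc153, Cfap44, Hydin, Spag17 and Lrriq1, are all of the cilium, and had 0 UMIs in the mesothelial cells. The 5 most raised were Muc16, at least 233-fold, Nxph1, at least 84.4-fold, Zfp804b, at least 80.0-fold, Pcdh11x, at least 45.1-fold, and Tll1, at least 42.8-fold, all with 0 UMIs in the gated cells. DESeq2's Wald test called none of these 5, with adjusted p-values of 0.053 to 0.172.

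Against these cells the mesothelial cells shared keratins only in part. Krt19 measured 269 and 557 CPM against 255 and 360 (0.46 ± 0.29, edgeR adjusted p = 0.33), whereas Krt7 was lower by 3.23, Krt8 by 1.82 and Krt18 by 1.44 on the log2 scale. Krt19 was called higher in 1 of 20 alternatives, with only Msln-positive cells, and changed sign in 2. Its values over the alternatives ran from -1.27 to 1.02. Krt18 was not called in all 4 libraries, at -1.14, without DMSO 1, at -1.06, without DMSO 2, at -0.96, or without BPTES 2, at -0.77, and with only Msln-positive cells neither it, at -0.82, nor Krt8, at -1.13, was called. Of the keratin and junction list, 4 of 33 genes were higher and 15 lower, with a median of -1.11. Complement genes were higher in 14 of 30 and lower in 1, with C4b higher by 5.72 ± 0.45 (edgeR adjusted p = 0.0050). Of the mesothelial list, 17 of 25 were higher and 3 lower, and Gpm6a, a membrane glycoprotein known from neurons, differed by 3.11 ± 0.44 (adjusted p = 0.012). A further comparison, with cells gated by AT2 genes, is not described by gene, because 149 of 176 and 177 of 251 of its DMSO cells had at least 3 UMIs of the fibroblast gene Pdgfra and only 14 and 35 had 100 or more of Sftpc. It gave 10.0% of 12930 genes higher and 11.5% lower.

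The 152 cells were not uniform in their other mesothelial genes, which bore out the name mesothelial less well in some of them. Of all the cells, 34 had 3 markers, 44 had 4 and 74 had 5. In DMSO 1, the 27 cells with 3 markers, just inside the rule, held 34.1 CPM of Muc16, 28.9 of Krt19 and 293 of Pdgfra. The 35 cells with 5 markers held 977 CPM of Muc16, 553 of Krt19 and 49.4 of Pdgfra. The 88 cells with 2 markers, just outside the rule, held 0.408 CPM of Muc16, 3.26 of Krt19 and 860 of Pdgfra. Their median depths were 24075.5, 36799 and 31211 UMIs for 2, 3 and 5 markers. With the 2-marker cells of both DMSO libraries counted in, an alternative added after seeing the data, Pdgfra was at -0.07 and the fibroblast transcription factor Tcf21 at -0.35 on the log2 scale against the other CD45-negative cells, and neither was called.

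DMSO 2 had fewer cells with 3 markers, 6 in all, and these were shallow, with a median of 3969.5 UMIs. They held 500 CPM of Muc16 and 0 of Pdgfra, so that Muc16 did not follow the number of markers step by step there. Its 32 cells with 5 markers held 1426 and 6.21 CPM of these genes, and its 27 cells with 2 markers held 13.7 and 1171. The mesothelial cells with 4 markers in DMSO 1 were still mixed by these genes, at 126 CPM of Muc16 and 273 of Pdgfra, and those of DMSO 2 were less so, at 210 and 51.2. These sets were ordered by genes of the rule, so the values are a description with no test.

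**Figure D4:**
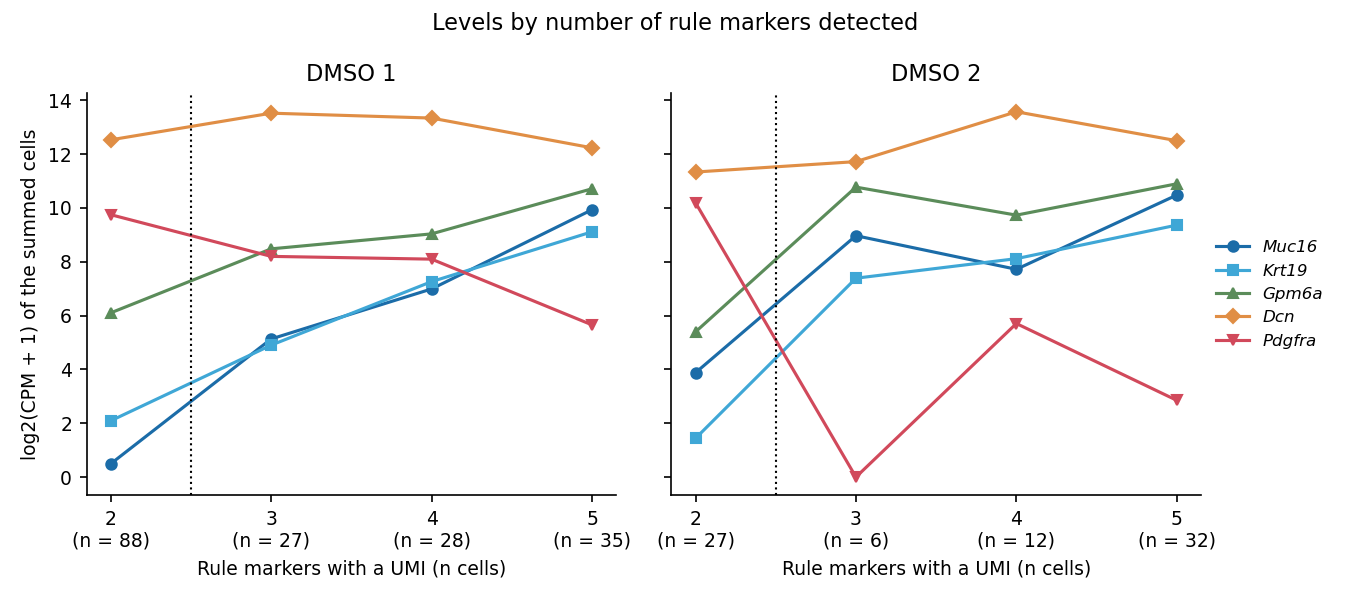
Levels as log2(CPM + 1) of summed cells by the number of rule markers with a UMI, in DMSO 1 and DMSO 2, with cell numbers under each point and a dotted line at the limit of the rule. Muc16 and Krt19 are lowest at 2 markers and highest at 5 in both libraries, and Pdgfra is highest at 2 markers.

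A split by Msln, chosen after values were seen and given with no test, also divided the class. In DMSO 1, 47 cells had no Msln UMI and 43 had at least 1, at median depths of 35883 and 31211 UMIs. In DMSO 2 the numbers were 12 and 38, at 11108 and 18317.5 UMIs. Muc16 measured 45.7 CPM without and 870 with a Msln UMI in DMSO 1, and 219 and 1361 in DMSO 2. Krt19 measured 58.1 and 512 CPM, then 241 and 640. Prg4 measured 1.86 and 381 CPM, then 28.0 and 237. All 3 genes were higher in the Msln-positive cells of both libraries.

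The other mesothelial genes were not alike across this split. Krt8 measured 6.18 and 177 CPM without and with a Msln UMI in DMSO 1, and 5.60 and 81.8 in DMSO 2. Krt18 measured 9.89 and 151, then 22.4 and 81.8, and Slpi 137 and 747, then 146 and 491. Cldn15 measured 19.2 and 231 CPM, then 202 and 412, and Gpm6a 431 and 1483, then 813 and 1884. These 5 genes were also higher in the Msln-positive cells of both libraries. Bnc1 measured 52.6 and 85.1 CPM without and with a Msln UMI in DMSO 1, and 84.1 and 102 in DMSO 2, and Aldh1a2 measured 205 and 325, then 280 and 442, which were smaller differences. Wt1 ran the other way, at 1259 and 790 CPM, then 1070 and 843. The fibroblast genes Dcn, at 11237 and 5655 CPM, then 12369 and 5811, and Pdgfra, at 297 and 70.8, then 44.8 and 8.76, were lower in the Msln-positive cells of both libraries. The 5 gate markers of adventitial fibroblasts were not, and summed to 435 and 521 CPM without and with a Msln UMI in DMSO 1 and to 342 and 713 in DMSO 2. Of these markers Dpp4 measured 31.5 and 211 CPM, then 219 and 456, whereas Pi16 measured 71.1 and 2.86, then 11.2 and 0. C3 had no shared direction, at 5224 and 6134 CPM, then 3665 and 2805.

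To read these genes at 1 depth, each cell was thinned to 5000 UMIs and shallower cells were left out, while the split by Msln was kept from the full depth and so was not matched for it. Left out were 1 and 2 cells in DMSO 1 and 2 and 5 in DMSO 2. Muc16 was then found in 8.70% of 46 cells without a Msln UMI and in 78.0% of 41 with one in DMSO 1, against 19.1% and 88.4% unthinned. In DMSO 2 it was found in 50.0% of 10 and 90.9% of 33 cells, against 50.0% and 92.1% unthinned. Krt19 was found in 6.52% and 61.0%, then in 30.0% and 78.8%. Adventitial fibroblasts held Muc16 in 0 of 304 and 0 of 200 cells before thinning. Their 0 of 298 and 0 of 197 cells at the thinned depth were therefore fixed in advance. Pdgfra was found in 58.7% and 29.3% of the DMSO 1 cells and in 10.0% and 0% of the DMSO 2 cells, against 84.6% and 83.2% of adventitial fibroblasts. In the DMSO 1 cells without a Msln UMI, Muc16, Krt19 and Pdgfra thus did not bear out the name mesothelial. Gpm6a did set them apart, in 67.4% of these cells against 1.01% of the DMSO 1 adventitial fibroblasts.

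**Figure D5:**
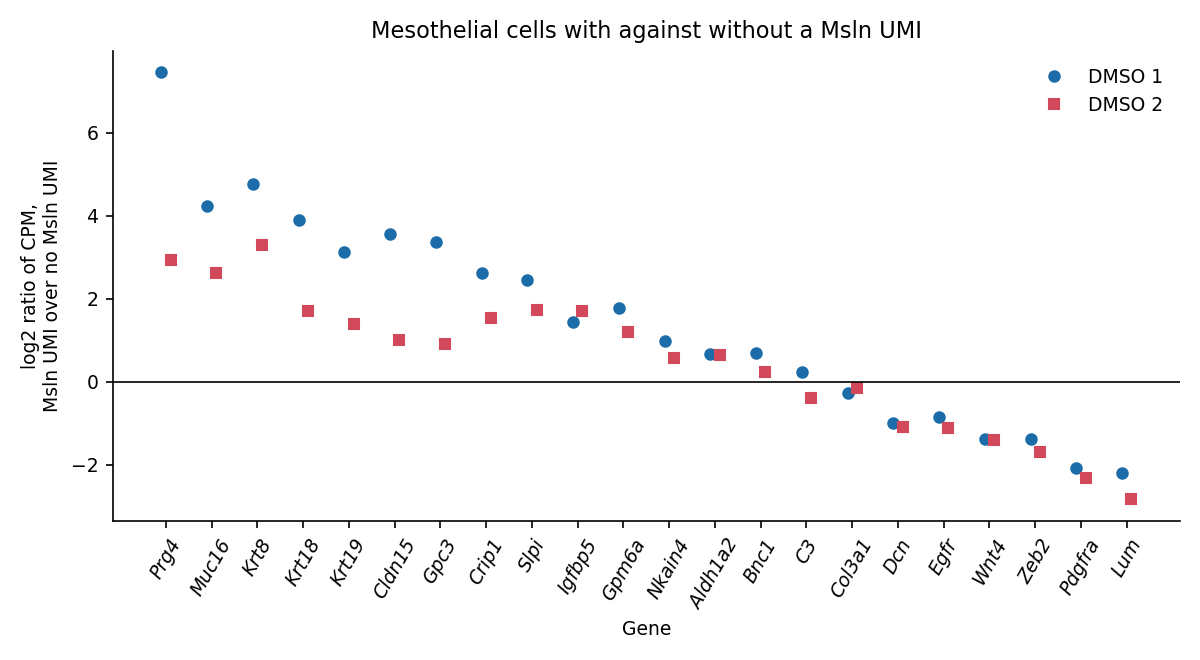
Log2 ratio of CPM in mesothelial cells with a Msln UMI over those without, by gene, in DMSO 1 (43 and 47 cells) and DMSO 2 (38 and 12 cells). Values above 0 are higher with Msln; Muc16, Krt19 and Prg4 lie above 0, and Dcn and Pdgfra below 0, in both libraries.

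Wt1 also marked cells outside the class, and this too followed the libraries. Among adventitial fibroblasts, 0 of 126 and 7 of 241 had a Wt1 UMI under BPTES, against 71 of 304 (23.4%) and 45 of 200 (22.5%) under DMSO. Cells with at least 3 Wt1 UMIs that were not mesothelial by the rule numbered 1 and 15 under BPTES, and 178 and 81 under DMSO. Of these, 1, 15, 175 and 77 had at least 5 UMIs of Dcn, and 1, 3, 24 and 9 had a UMI of Upk3b. The order of the 4 libraries was the same for these cells as for the mesothelial cells.

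Some cells with enough markers were left out by the rule itself. Cells with at least 3 markers numbered 6 and 15 under BPTES and 130 and 62 under DMSO, of which 2, 7, 40 and 12 had a UMI of Cdh5 or Ptprc. In 2, 5, 24 and 10 of these it was 1 UMI in all. Their median depths, 23127.5, 9309, 38663 and 21916 UMIs, were above those of the cells kept in every library.

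Glutamine is an amino acid that cells use as a source of nitrogen and carbon, and genes that handle it were read in the class as well. Of 25 tested, 6 were higher and 3 lower, beside 9.13% and 13.3% over all genes tested. The median was 0.085, or 0.30 with the 2 genes at 0 UMIs set to the floor. Glul, glutamine synthetase, measured 127 and 116 CPM in the DMSO mesothelial cells against 128 and 122 in the other cells (-0.01 ± 0.28, edgeR adjusted p = 0.99). Slc38a1, a transporter that brings glutamine into cells, measured 75.6 and 93.8 CPM against 3.22 and 2.33 (4.96 ± 0.32, edgeR adjusted p = 4.4e-52), and differed by 5.10 ± 0.71 from adventitial fibroblasts. Slc38a5, a related transporter, had 0 UMIs and was at least 59.6-fold lower. Its call was lost in 2 of 21 alternatives, and its sign changed in 1, at 0.53 with at least 2 markers and all 4 libraries.

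Further glutamine genes showed smaller differences. Gfpt2, which spends glutamine on hexosamines, measured 351 and 388 CPM against 113 and 90.7 in the other cells (1.90 ± 0.29, edgeR adjusted p = 1.8e-09) but was below adventitial fibroblasts, at 780 and 1129 CPM (-1.46 ± 0.23, adjusted p = 0.013). The serine synthesis genes Phgdh and Psat1 were higher by 2.91 ± 0.50 and 2.85 ± 0.58. Slc7a11, the cystine-glutamate exchanger, measured 4.31 and 1.16 CPM against 24.6 and 21.3 (-2.81 ± 0.48), and differed by -4.70 from adventitial fibroblasts. Slc1a5, a neutral amino acid transporter, was higher by 0.95 ± 0.29 (edgeR adjusted p = 0.0059), and the call was lost in 8 of 21 alternatives, among them in all 4 libraries, at 0.84, without DMSO 1, at 1.04, without DMSO 2, at 0.57, without BPTES 2, at 0.72, and against cells with no Cdh5 UMI, at 0.13.

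Genes used to mark senescent cells gave no common direction. Of 21 tested, 4 were higher and 5 lower, 4 of the 5 in both libraries, with a median of 0.24. Over all genes tested 9.13% were higher and 13.3% lower. Cdkn2a, which encodes p16, had 26 UMIs in DMSO 1, 35% of them in 1 cell, and 0 in DMSO 2 (1.73 ± 0.97, edgeR adjusted p = 0.22). It was called higher in 2 of 21 alternatives, against cells with no Cdh5 UMI, at 3.08, and without DMSO 2, at 1.99. Its sign changed in 1, without DMSO 1, where the mesothelial cells had 0 UMIs and the fitted size depends on a prior. Cdkn1a, which encodes p21, measured 81.9 and 217 CPM against 238 and 274 (-0.90 ± 0.29, edgeR adjusted p = 0.012). The call was lost in 8 of 21 alternatives and the sign changed in 1 more, among them against cells with no Cdh5 UMI, at -0.10, in all 4 libraries, at -0.23, and from there without DMSO 1, at 0.27, without DMSO 2, at -0.17, and without BPTES 1, at -0.09. Ccng1, a target of p53, measured 55.0 and 69.5 CPM against 25.0 and 24.7 (1.35 ± 0.28, edgeR adjusted p = 1.9e-05), and was not called in 3 of 21 alternatives, without DMSO 1, at 1.25, without DMSO 2, at 1.10, and with at least 2 markers and all 4 libraries, at 0.47.

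The 12 mesothelial cells of the BPTES libraries are too few for a test by gene and are set beside the DMSO cells as values with Poisson 95% intervals, which cover counting error only. Muc16 measured 2329 CPM (1905 to 2820) in BPTES 1 and 998 (824 to 1200) in BPTES 2, beside 428 and 1125 under DMSO. Gpm6a measured 2440 (2006 to 2941) and 508 (386 to 657), beside 919 and 1662. Krt19 measured 621 (413 to 898) and 525 (401 to 676), beside 269 and 557. In BPTES 2, 1 cell held 68578 of the 114171 UMIs, or 60.1%, with 0 UMIs of Muc16, 1 of Gpm6a and 47 of the 60 of Krt19. Without that cell Muc16 measured 2500 CPM there, Gpm6a 1250 and Krt19 285.

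Other genes of these 12 cells were as scattered. Igfbp5 measured 4925 and 1594 CPM beside 1526 and 3650 under DMSO, and its BPTES 2 value was 3992 without the deepest cell. Slpi measured 66.6 and 885 CPM beside 420 and 419, with 3 of 3 and 87 of 101 UMIs from 1 cell under BPTES. Pdgfra measured 22.2 and 0 CPM beside 192 and 16.2. All 5 markers were found in 4 of 4 and 3 of 8 cells under BPTES and in 35 of 90 and 32 of 50 under DMSO, so that BPTES 2 had the lowest share and BPTES 1 the highest.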

How the data were processed

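Single-cell 3' RNA libraries of 4 lung samples, 2 with BPTES and 2 with DMSO, were deposited by the authors as filtered matrices of UMI counts, whole numbers per gene and cell with no normalisation. Cell Ranger 8.0.1 and mm10 are named in the submitters' processing notes. Each matrix held 31054 features, of which 35 had no unique symbol. Members and gene lists were chosen with earlier results of these data known.

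Cells were filtered and gated as the report states, with no clustering and no doublet caller. Counts were summed per library and class for libraries with at least 10 members, which left the 2 DMSO libraries. They were tested with edgeR 4.0.16 and limma 3.58.1 in R 4.3.3 (TMM, filterByExpr, glmQLFTest, library as block, Benjamini-Hochberg over all genes, called at 0.05, two-sided). SEs come from the F statistic. DESeq2 1.42.0 was an alternative. The fit was also run on counts simulated with the same spread for all genes and no difference between libraries. The data differ in this, so nothing about the p-values above is concluded from it. Python 3.11.15, numpy 2.4.6, scipy 1.17.1, pandas 2.3.3 and matplotlib 3.10.9 were used.

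Named genes were the 20 highest and 8 lowest called genes of the first comparison and 5 each way in the others (same direction in both libraries, at least 50 CPM in the higher class). From each list they were up to 8 by level and 6 by difference, and any glutamine or senescence gene, but 1 gene of the glutamine list is not reported here and was left out of its counts. Fitted differences of genes at 0 UMIs depend on a prior, and single genes are given as bounds at a floor of 3 UMIs. List medians use fitted values, and are also given with such genes at the floor where that moves them. PCR duplicates are removed by UMIs, and intervals cover counting error only. Alternatives changed the test, scaling, filters, marker minimum, mitochondrial limit, comparison cells, doublet limits and libraries.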

Additional observations from a re-analysis of the deposited data

Results flagged for a closer look

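Cdkn1a was singled out because its difference between mesothelial and other CD45-negative cells had opposite signs in the treatments, although BPTES 1 was near 0. The log2 ratios were 0.01 and 1.90 under BPTES and -1.54 and -0.33 under DMSO. The means, 0.96 and -0.94, differ by 1.895. This difference was not tested, and the BPTES values rest on 4 and 8 cells. In BPTES 2, 87 of the 102 UMIs of Cdkn1a came from the deepest cell, and without the deepest cell of each library the ratios were -0.18 and 0.50 under BPTES and -1.51 and -0.23 under DMSO, so that the signs no longer separated the treatments.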

How the results depend on the processing

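The lower share of mesothelial cells under BPTES kept its sign under every alternative run, from -2.23 with at least 2 markers to -3.93 with a mitochondrial limit of 5%, and from -4.09 to -2.89 leaving out 1 library at a time. Permuting within replicate numbers, a replicate block, gave the same -3.49 with an exact p of 0.5, the smallest it allows. The numbers name libraries only, and with 2 pairs nothing shows that they pair mice. Fits with only Msln-positive cells, without cells of 100 or more Sftpc UMIs, with at least 2 markers in the DMSO libraries only, and with 1 library left out were chosen after seeing the data. The last use all 4 libraries but 1, and assume that a lone library of a group varies like the others.

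With at least 2 markers the BPTES libraries also reached 10 cells and entered the fits, so 2 choices changed together there. In the DMSO libraries alone, at least 2 markers gave 1279 genes higher than in adventitial fibroblasts, 1279 higher than in AT1-gated cells, 1709 higher and 2157 lower than in other CD45-negative cells, and 1311 higher and 1270 lower than in AT2-gated cells. The counts with at least 2 markers that follow are from all 4 libraries, and those with 1 library left out start from all 4, where the counts higher and lower were 1299 and 2794 against other CD45-negative cells, 770 and 1275 against adventitial fibroblasts, 913 and 1487 against AT1-gated cells, and 977 and 1821 against AT2-gated cells. Against other CD45-negative cells, the 1697 genes higher became 698 with at least 2 markers and 795 without the cells that passed for another class, and 868 to 1427 with 1 library left out. The 2465 lower became 1449 with DESeq2, 1427 with at least 2 markers, 1550 without those cells, and 1551 to 2879 with 1 library left out. Against adventitial fibroblasts, the 822 higher became 1240 with no filter, 447 without cells that passed for another class, and 525 to 899 with 1 library left out, and the 975 lower became 1675 with no filter and 632 without those cells. Without TMM the median of all genes there moved from -0.02 to 0.10. Against AT1-gated cells, the 852 higher became 520 with DESeq2, 1576 with no filter, 1606 with at least 2 markers, and 557 to 912 with 1 library left out, and the 1227 lower became 1887 with at least 2 markers. Against AT2-gated cells, the 1295 higher became 239 with at least 2 markers, 656 without cells that passed for another class, and 624 to 1138 with 1 library left out, and the 1481 lower became 946 with DESeq2, 601 with at least 2 markers and 932 without those cells. The causes were not tested.

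Of the 83 genes followed through the alternatives against other CD45-negative cells, 80 were called and 43 of them in every alternative. Il33, Cxcl1, Ccl2, Ccl7 and some other genes read in the text were not followed. Over all comparisons, 28 gene differences lost their call with at least 2 markers and all 4 libraries, Lrat (-0.21) among them, 21 with DESeq2, and 6 with at least 2 markers in the DMSO libraries. Signs changed with at least 2 markers and all 4 libraries for Fgf10 (0.47), Scn3a (0.54), Tcf21 (0.46), Hgf (0.50), Slc38a5 (0.53) and Pdgfra (0.68), for Tcf21 (0.66) and Hgf (1.54) against adventitial fibroblasts, and for Krt19 (-1.27) against AT1-gated cells. In the DMSO libraries alone they changed for Hgf (0.066) against adventitial fibroblasts and Krt19 (-0.40) against AT1-gated cells, and Fgf10 (-0.32), Scn3a (-0.53), Tcf21 (-0.35), Slc38a5 (-0.20) and Pdgfra (-0.07) kept their sign against other CD45-negative cells but were not called. Glul, called in no alternative, gave 0.036 with DESeq2, 0.0079 with at least 4 markers, 0.046 without the deepest cells and -0.72 without DMSO 1. Aqp1 gave 0.11 with at least 4 markers, 0.50 with only Msln-positive cells and 2.79 against cells with no Cdh5 UMI, where Tspan8 gave 1.64, and was called lower at -1.58 without cells that passed for another class and, with at least 2 markers, at -0.98 in the DMSO libraries and -2.03 in all 4. With 1 library left out, Saa3 ran from -2.35 without DMSO 1 to 1.41, Cdkn1a from -0.85 to 0.27 without DMSO 1, and Cdkn2a from -8.91 without DMSO 1 to 1.99.

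Depth limits the smallest sums most, those of the 12 BPTES cells.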
